A study of Mus musculus with 18 samples.

Results

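The genes described here are 9 genes that mark resident peritoneal macrophages, Gata6, Cd5l, Fcna, Vsig4, Timd4, Icam2, Alox15, Prg4 and Adgre1. They were chosen by name and matched to their Ensembl mouse gene identifiers, and they are 9 of the 14063 genes with a value in the deposited data. RNA-seq covered peritoneal macrophages that thioglycolate had drawn into the peritoneal cavity of wild-type mice, called TLR4-WT, and of 2 mutant strains, TLR4-K730R and TLR4-K810R. The mutant mice were made with CRISPR/Cas9 on a C57BL/6 background and carry arginine in place of 1 lysine in the TIR domain of TLR4, in every cell of the animal. Cells of each genotype were mock-treated, which the sample labels call control, or received LPS at 100 ng/ml for 6 h. Each of the 6 groups holds 3 libraries. The labels do not say whether the 3 libraries of a group came from separate mice, so p-values measure the spread between these libraries, which may be technical. The age and sex of the mice are not given for the RNA-seq.

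Resident macrophages of the peritoneal cavity, also called large peritoneal macrophages, depend on the transcription factor GATA6, which retinoic acid from the surrounding mesothelium and fibroblasts maintains. They carry high F4/80 and a set of receptors and secreted proteins that clear dying cells and complement-coated particles. Thioglycolate recruits blood monocytes, which become the main macrophage of the exudate and carry less of this program. In bulk RNA, fewer cells of a type and less RNA per cell cannot be told apart.

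For each library, first-exon and last-exon rows of a gene were summed in FPKM (fragments scaled to transcript length and library total), and the larger sum was taken as its value. FPKM is per length, so levels can be set side by side between genes. All 9 genes had a value and passed the filter, 1 FPKM or more in 3 or more of the 18 libraries, which left 10066 genes for testing. Differences were tested with limma on log2(FPKM + 1), with all 18 libraries in one fit and Benjamini-Hochberg adjustment over the 10066 genes, and were called at an adjusted p below 0.01. Every difference below is on the log2(FPKM + 1) scale, where changes of low genes come out too small. The 9 genes were picked with earlier results of these data known, so their adjusted p-values describe them and are not independent evidence. The files hold no read counts, the depth is unknown, and no counting interval can be given.

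Tlr4 itself, whose level does not check a point mutation, had means of 10.4 to 12.5 FPKM in the 3 mock groups and 4.68 to 5.17 after LPS. Over the 10057 tested genes that are not among the 9, 15 libraries had their nearest library, by mean absolute log2 difference, in their own group and 3 did not. The library labelled TLR4-K730R LPS 3 lay nearest to TLR4-WT LPS 2, at 0.294, and its distances to its own group were 0.348 and 0.375. The library labelled TLR4-WT LPS 3 lay nearest to TLR4-K810R LPS 3, at 0.314, against 0.364 and 0.400 to its own group. TLR4-WT LPS 2 lay 0.300 from its closest own replicate and 0.294 from TLR4-K730R LPS 3. On average TLR4-WT LPS 3 lay 0.326 from the TLR4-K810R LPS libraries, 0.349 from those of TLR4-K730R LPS and 0.382 from its own group. TLR4-K730R LPS 3 lay 0.337 from the TLR4-WT LPS libraries, 0.361 from its own group and 0.448 from those of TLR4-K810R LPS. Whether these 2 libraries carry each other's labels was not tested. The labels were kept as given, every LPS comparison of TLR4-WT and TLR4-K730R depends on them, and calls that end or appear when both LPS 3 libraries are left out are given with the values without them. TLR4-K810R mock 3 also stood off, at 0.353 and 0.363 from its group against 0.288 between the other 2.

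The 9 genes spanned most of the range of expression. Adgre1 (mean over 18 libraries 216 FPKM) lay at the 97.5th percentile of tested genes, Cd5l (91.7 FPKM) at the 94.1st and Fcna (29.8 FPKM) at the 82.9th. The Adgre1 value is its first-exon sum, and its last-exon sums were far lower, at 9.32 to 109.5 FPKM. Prg4 (10.6 FPKM) and Vsig4 (7.04 FPKM) lay near the middle, at percentiles 61.1 and 50.5. Timd4 (2.14 FPKM), Gata6 (2.07 FPKM) and Icam2 (1.95 FPKM) lay at percentiles 21.2, 20.4 and 19.3, and Alox15 (0.622 FPKM) at 2.83. Genes that macrophages in general express gave a summed 12216 to 26400 FPKM per library over 14 genes with a value. Most of this sum came from Lyz2 (5944 to 13291 FPKM) and Ctsd (1704 to 8146), while Cd14, the LPS co-receptor, was listed at 0 in 17 of the 18 libraries and at 463 in the other. Several defining genes of the resident cell were near the low end of the measured range.

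The start regions of genes that are grouped below are shown first. RefSeq start sites in GRCm38.p6 were given for 4 of the 9 genes, as 250 bases before and 50 bases after the start. Cd5l and Vsig4 are printed because the levels of these genes followed each other most closely among the 9, and Timd4 because it moved the other way after LPS. Cd5l is read from the plus strand at chr3:87357631-87357930, Vsig4 from the minus strand at chrX:96293389-96293688 and Timd4 from the plus strand at chr11:46810549-46810848. Capitals mark the letters GATAA, the core that GATA factors bind, searched on both strands.
Cd5l: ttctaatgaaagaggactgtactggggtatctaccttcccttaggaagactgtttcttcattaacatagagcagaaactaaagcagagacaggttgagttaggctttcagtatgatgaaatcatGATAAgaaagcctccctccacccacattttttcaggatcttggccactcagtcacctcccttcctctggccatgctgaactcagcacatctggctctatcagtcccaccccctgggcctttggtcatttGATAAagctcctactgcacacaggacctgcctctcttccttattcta
Vsig4: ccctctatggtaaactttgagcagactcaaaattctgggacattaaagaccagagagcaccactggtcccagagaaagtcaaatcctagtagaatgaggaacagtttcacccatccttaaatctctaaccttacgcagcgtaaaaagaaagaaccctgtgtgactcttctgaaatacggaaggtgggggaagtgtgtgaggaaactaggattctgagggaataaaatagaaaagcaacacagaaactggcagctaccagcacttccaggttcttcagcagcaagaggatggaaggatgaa
Timd4: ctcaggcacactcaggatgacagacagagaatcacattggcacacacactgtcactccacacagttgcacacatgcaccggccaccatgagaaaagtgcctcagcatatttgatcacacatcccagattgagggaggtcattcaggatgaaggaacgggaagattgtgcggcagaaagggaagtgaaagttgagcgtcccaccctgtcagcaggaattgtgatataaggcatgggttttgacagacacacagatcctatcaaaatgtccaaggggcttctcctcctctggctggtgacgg
Cd5l held the motif at 2 places, from positions -126 and 4 relative to the start, both on the gene's strand, and its RefSeq start equals the first base of its first-exon row. Vsig4 and Timd4 held none in these windows, and neither did Fcna. For comparison, 25.4% of all 32851 promoters of this length hold the motif on either strand. A match is a description of the letters and not a binding site.

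**Figure D1:**
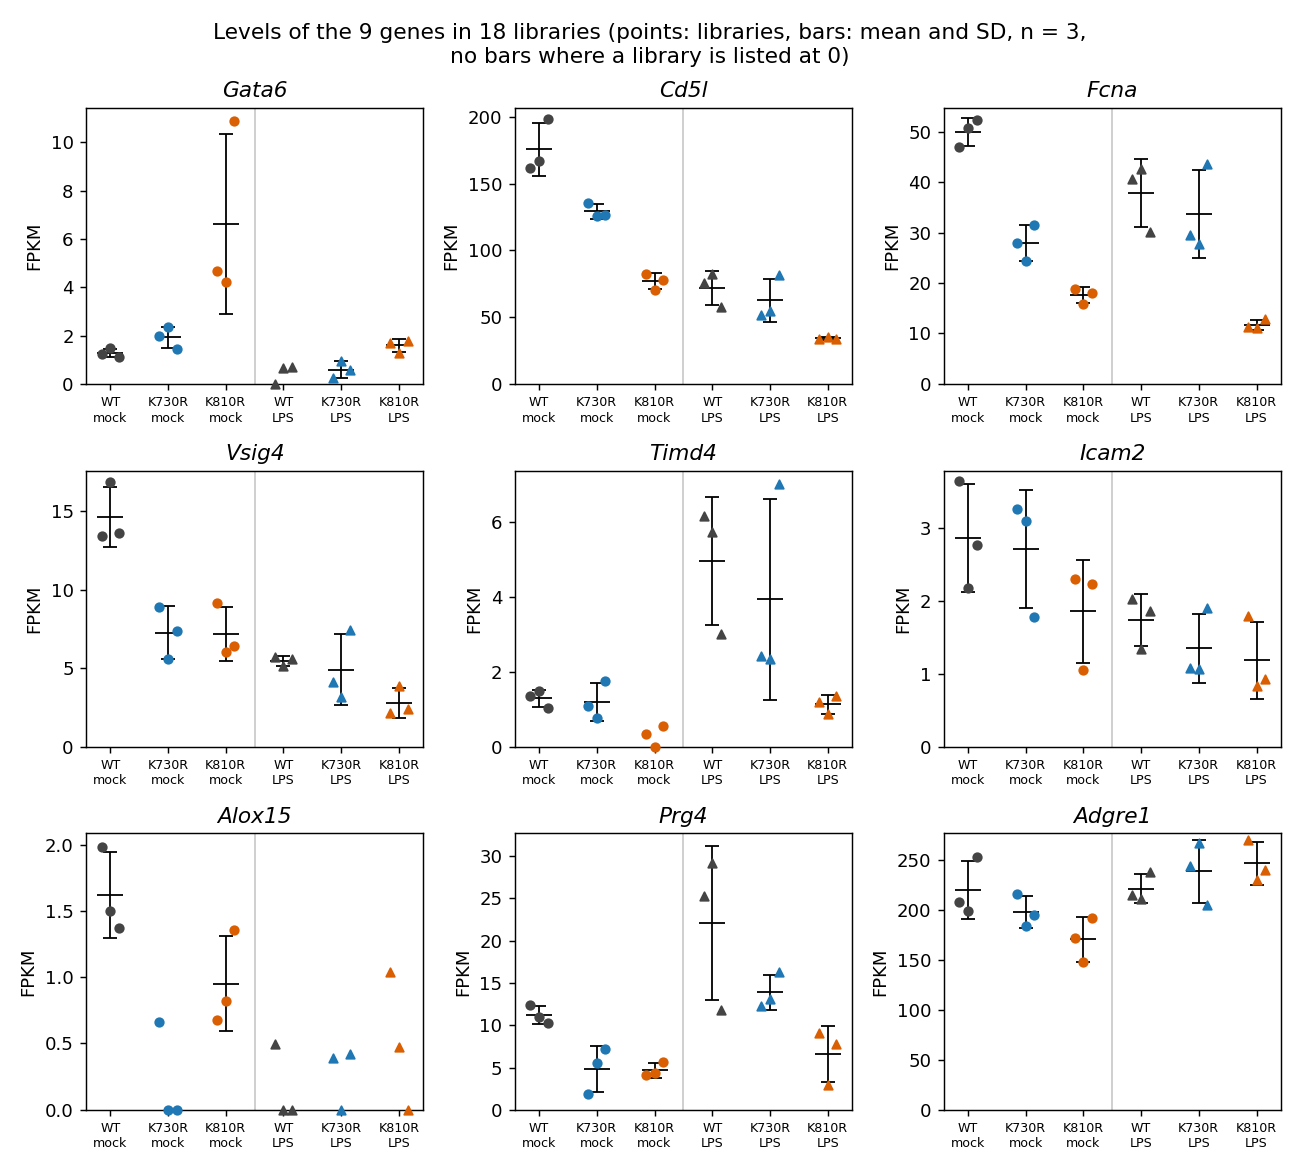
Levels of the 9 genes in FPKM (vertical axis, linear from 0) by genotype and treatment (horizontal axis), with 1 point per library, circles for mock and triangles for LPS, and the mean and SD (n = 3) as bars except where a library is listed at 0. The mock mean of Cd5l is 176 FPKM in TLR4-WT and 76.8 in TLR4-K810R, with TLR4-K730R between them at 129, and Gata6 is highest in the 3 TLR4-K810R mock libraries, at 4.23 to 10.9.

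Gata6 (ENSMUSG00000005836, chr18:11052064-11085635, plus strand) encodes the transcription factor of the resident program and is also transcribed in mesothelium. In mock-treated cells the TLR4-WT libraries held 1.22, 1.47 and 1.13 FPKM (1.27 ± 0.178, SD, n = 3) and those of TLR4-K730R 1.99, 2.34 and 1.45 (1.92 ± 0.448). In TLR4-K810R it was 4.69, 4.23 and 10.9 FPKM (6.60 ± 3.72), and each of these libraries exceeded all 15 others. The difference from TLR4-WT was 1.64 ± 0.28 (SE) and was called, with an adjusted p of 0.00357 in limma. It was no longer called without TLR4-K810R mock 3 (1.27, adjusted p = 0.0157) or without any single TLR4-WT mock library (adjusted p of 0.0152 to 0.0193). The call was also lost without any 1 replicate number of all groups, with only the groups compared, with a pseudocount of 0.1 and from first-exon sums, with adjusted p-values up to 0.0973. In TLR4-K810R mock 3 7.86 FPKM came from the first exon that starts at base 11053044, which was at most 0.710 in every other library. After LPS, TLR4-K810R fell to 1.71, 1.29 and 1.78 FPKM (1.59 ± 0.266), a difference of -1.45 ± 0.28 with an adjusted p of 0.000675. This call was lost with only the groups compared (0.0140), with a pseudocount of 0.1 (0.0316), from first-exon sums (0.0184) and without replicate 3 of all groups (0.0142). TLR4-K730R had 0.230, 0.929 and 0.591 FPKM after LPS, at -0.90 and an adjusted p of 0.0158, and TLR4-WT was listed at 0 in 1 library with 0.641 and 0.695 in the others. Mock and LPS libraries did not overlap in any genotype, but the call was made in TLR4-K810R alone, and the LPS response of TLR4-K810R against that of TLR4-WT gave an adjusted p of 0.437.

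The higher Gata6 level of mock-treated TLR4-K810R cells stood beside higher levels of stromal genes. The summed level of 10 mesothelium and fibroblast markers was 32.9 to 50.9 FPKM in the TLR4-WT mock libraries, 61.1 to 72.0 in TLR4-K730R, with 121, 136 and 291 in TLR4-K810R, where the highest is TLR4-K810R mock 3. All 8 such markers tested were higher in mock-treated TLR4-K810R than in TLR4-WT. Of them 4 were called, in a comparison that called 1.64% of all genes. These were the collagen genes Col1a1 (2.15, adjusted p = 0.00737) and Col1a2 (1.85, 0.00290), the proteoglycan gene Dcn (2.004, 0.00382) and the mesothelial transcription factor Wt1 (2.19, 0.00123). After LPS the sums were 43.8, 107 and 146 FPKM in TLR4-WT, 48.4 to 48.9 in TLR4-K730R and 103 to 125 in TLR4-K810R. In TLR4-WT after LPS, where the sums reached 146, Gata6 was at most 0.695 FPKM. Among mesothelial markers, Msln and Krt7 were listed at 0 in 8 and 3 of the 18 libraries and reached 1.19 and 1.69 FPKM at most. Krt19 and Lrrn4 were listed at 0 in 1 and 6 libraries and reached 7.76 and 4.77 FPKM. Upk3b and Wt1 were never listed at 0 and reached 5.44 and 10.5 FPKM. The part of these cells in the Gata6 values was not tested.

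**Figure D2:**
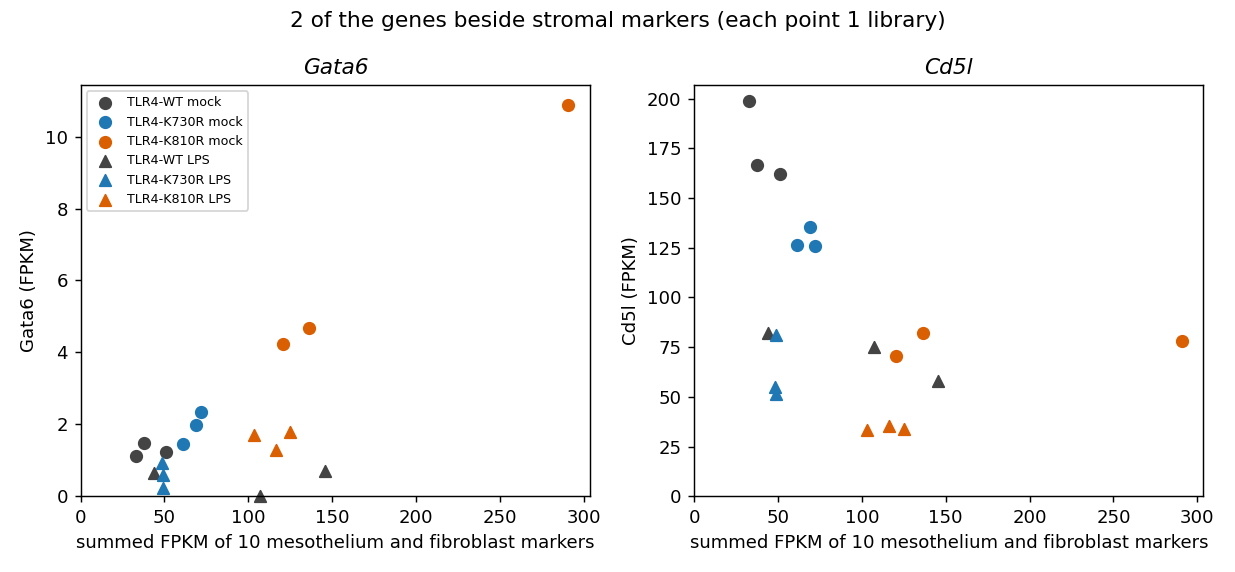
Gata6 (left) and Cd5l (right) in FPKM (vertical axes) against the summed FPKM of 10 mesothelium and fibroblast markers (horizontal axes), each point 1 library, coloured by genotype with circles for mock and triangles for LPS. TLR4-K810R mock 3 lies alone at the upper right of the Gata6 panel, at 10.9 FPKM of Gata6 and a marker sum of 291.

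Among the secreted proteins, Cd5l (ENSMUSG00000015854, chr3:87357881-87371073, plus strand) encodes a scavenger protein that macrophages release into the blood. Its mock level was 162, 167 and 199 FPKM in TLR4-WT (176 ± 19.96), 135, 126 and 126 in TLR4-K730R (129 ± 5.38), with 82.0, 70.4 and 78.1 in TLR4-K810R (76.8 ± 5.89). The 3 mock groups did not overlap. TLR4-K810R was lower than TLR4-WT by a ratio of means of 2.29, with a difference of -1.18 ± 0.16 and an adjusted p of 0.000468, and this call stayed when any 1 library was left out. It was lost, with adjusted p-values up to 0.0416, when only the groups compared were fitted or when replicate 1 or 2 of all groups was left out. The TLR4-K730R difference, -0.44, was not called (adjusted p = 0.473). After LPS it fell in all 3 genotypes, to 75.2, 82.3 and 57.9 FPKM in TLR4-WT (71.8 ± 12.5), 51.6, 54.8 and 81.2 in TLR4-K730R (62.5 ± 16.2), with 33.4, 35.2 and 33.6 in TLR4-K810R (34.0 ± 0.987). The differences were -1.29 (adjusted p = 5.88e-06), -1.06 (4.23e-05) and -1.15 (2.36e-05). With LPS, TLR4-K810R was lower than TLR4-WT by -1.04 ± 0.16 with an adjusted p of 0.00824, which rose up to 0.0398 and lost the call when any single library other than TLR4-WT LPS 3 was left out. It was lost too without the filter, with the replicate block, with only the groups compared and without replicate 1 or 2 of all groups, with adjusted p-values up to 0.264. Without TLR4-WT LPS 3 and TLR4-K730R LPS 3 this difference was -1.19, with an adjusted p of 3.51e-05.

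Fcna (ENSMUSG00000026938, chr2:25624666-25628030, minus strand) encodes ficolin A, a plasma lectin that starts the lectin pathway of complement. It was 47.0, 50.7 and 52.3 FPKM in mock-treated TLR4-WT cells (49.99 ± 2.73), 28.0, 24.4 and 31.6 in TLR4-K730R (28.0 ± 3.59), with 18.9, 15.9 and 17.998 in TLR4-K810R (17.6 ± 1.55). The 3 mock groups again did not overlap, in the same order as for Cd5l. TLR4-K810R lay below TLR4-WT by a ratio of 2.84, at -1.46 ± 0.17 with an adjusted p of 9.56e-05. That call was lost from first-exon sums (adjusted p = 0.358), whose rows lie 862 and 883 bases upstream of the annotated gene, and without replicate 1 or 2 of all groups. TLR4-K730R differed by -0.82 with an adjusted p of 0.0338, not called. After LPS the levels were 40.6, 42.7 and 30.1 FPKM in TLR4-WT (37.8 ± 6.76), 29.6, 27.8 and 43.7 in TLR4-K730R (33.7 ± 8.70), with 11.3, 11.03 and 12.8 in TLR4-K810R (11.7 ± 0.983). None of the LPS differences (-0.41, 0.24 and -0.55) was called, with adjusted p-values of 0.0524, 0.247 and 0.0146. The low library of TLR4-WT and the high library of TLR4-K730R are the ones labelled LPS 3, and without both the differences were -0.26 (adjusted p = 0.0930) and 0.04 (0.808). With LPS, TLR4-K810R was lower than TLR4-WT by a ratio of 3.22 (-1.60, adjusted p = 0.000608) and lower than TLR4-K730R by 2.87 (-1.42, 0.00105). Both lost their call with only the groups compared (adjusted p = 0.125 and 0.0473) and without replicate 1 or 2 of all groups (0.0578 to 0.137), and both turned positive from first-exon sums, at 1.21 and 1.1. The second also lost its call without TLR4-K810R LPS 2 (adjusted p = 0.0104). Without both LPS 3 libraries, the values were -1.75 (8.48e-06) and -1.22 (0.000633). Every Fcna value comes from its single last exon.

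Prg4 (ENSMUSG00000006014, chr1:150449412-150466165, minus strand) encodes lubricin, a secreted glycoprotein of joint and body cavity surfaces. Mock levels were 12.4, 10.9 and 10.3 FPKM in TLR4-WT (11.2 ± 1.09), 1.86, 5.56 and 7.17 in TLR4-K730R (4.87 ± 2.72), with 4.06, 4.29 and 5.71 in TLR4-K810R (4.69 ± 0.894). Both mutants lay below TLR4-WT in all libraries, at -1.19 and -1.11, without a call (adjusted p = 0.403 and 0.176). After LPS the levels were 25.3, 29.2 and 11.8 FPKM in TLR4-WT (22.1 ± 9.12), 12.3, 13.2 and 16.2 in TLR4-K730R (13.9 ± 2.08), with 9.12, 2.89 and 7.81 in TLR4-K810R (6.60 ± 3.28). It rose in TLR4-K730R, by 1.47 ± 0.40 with an adjusted p of 0.00608. That call was lost without TLR4-K730R mock 1, whose level of 1.86 was the lowest of its group, or without any 1 of the TLR4-K730R LPS libraries, with adjusted p-values up to 0.0388. It was also lost without both LPS 3 libraries (1.36, adjusted p = 0.0162), without the filter, with the replicate block, with only the groups compared, from first-exon or last-exon sums and without any 1 replicate number of all groups. Without both LPS 3 libraries, TLR4-K810R was lower than TLR4-WT after LPS by -2.004 (adjusted p = 0.00640), against -1.62 (0.0430) with all libraries.

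Vsig4 (ENSMUSG00000044206, chrX:96247203-96293438, minus strand) is the complement receptor of tissue macrophages. It was 13.4, 16.8 and 13.6 FPKM in mock-treated TLR4-WT cells (14.6 ± 1.91), 8.87, 5.56 and 7.38 in TLR4-K730R (7.27 ± 1.66), with 9.15, 6.00 and 6.38 in TLR4-K810R (7.18 ± 1.72). TLR4-WT lay above both mutants in every library, but -0.93 (adjusted p = 0.154) and -0.95 (0.0421) were not called. After LPS it fell in TLR4-WT to 5.71, 5.12 and 5.60 FPKM (5.48 ± 0.317), by 1.26 on the log2 scale with an adjusted p of 0.000481. In TLR4-K810R it fell to 2.13, 3.86 and 2.38 FPKM (2.79 ± 0.932), at -1.12 and an adjusted p of 0.00157. That call was lost without TLR4-K810R mock 1 (adjusted p = 0.0106), with median-of-ratios scaling (0.0130), with only the groups compared (0.0101) and without replicate 1 or 3 of all groups, and that of TLR4-WT without replicate 1 of all groups (0.0103). TLR4-K730R had 4.12, 3.15 and 7.46 FPKM, at -0.53 and an adjusted p of 0.0810 with all libraries, and at -0.82 and 0.00955, a call, without the LPS 3 libraries.

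Timd4 (ENSMUSG00000055546, chr11:46810800-46844332, plus strand) encodes TIM-4, a receptor for phosphatidylserine on dying cells that long-lived resident macrophages carry. In mock-treated cells it was 1.36, 1.49 and 1.05 FPKM in TLR4-WT (1.30 ± 0.227) and 1.09, 0.762 and 1.77 in TLR4-K730R (1.21 ± 0.512). TLR4-K810R had 0.354 and 0.562 FPKM in 2 libraries and was listed at 0 in the other. Unlike Cd5l and Vsig4, it rose after LPS in TLR4-WT, to 6.17, 5.74 and 3.02 FPKM (4.98 ± 1.71), by 1.34 ± 0.31 with an adjusted p of 0.00231. This call was lost without TLR4-WT mock 3, TLR4-WT LPS 1 or TLR4-WT LPS 2, with adjusted p-values of 0.0111 to 0.0138, with a pseudocount of 0.1 (0.0206) and without replicate 1 or 2 of all groups. TLR4-K730R reached 2.44, 2.35 and 7.04 FPKM (3.94 ± 2.68; 1.06, adjusted p = 0.0104) and TLR4-K810R 1.20, 0.865 and 1.36 (1.14 ± 0.253; 0.73, adjusted p = 0.0726), with no overlap with mock in either but no call. Without both LPS 3 libraries the TLR4-K730R difference was 0.65 (adjusted p = 0.0293), and it became a call without TLR4-K730R LPS 1, LPS 2 or mock 3, with adjusted p-values of 0.00641 to 0.00934. The level after LPS in TLR4-K810R was below every TLR4-WT LPS library, at -1.44 (adjusted p = 0.0308), and at -1.71 with a call (0.000358) without both LPS 3 libraries.

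Icam2 (ENSMUSG00000001029, chr11:106377656-106388075, minus strand) is an adhesion molecule that resident peritoneal macrophages share with endothelium. Its mock levels were 3.64, 2.18 and 2.77 FPKM in TLR4-WT (2.86 ± 0.735), 3.27, 3.10 and 1.79 in TLR4-K730R (2.72 ± 0.810), with 2.30, 1.05 and 2.23 in TLR4-K810R (1.86 ± 0.703), which overlap. LPS-treated cells had 2.02, 1.34 and 1.87 FPKM in TLR4-WT (1.74 ± 0.355), 1.08, 1.07 and 1.90 in TLR4-K730R (1.35 ± 0.473), with 1.79, 0.837 and 0.934 in TLR4-K810R (1.19 ± 0.527). No comparison of Icam2 was called. The summed level of 5 other endothelial genes was 0.534 to 2.02 FPKM in mock libraries and 1.96 to 4.29 after LPS.

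Adgre1 (ENSMUSG00000004730, chr17:57358691-57483527, plus strand) encodes F4/80, the surface marker by which mouse macrophages are usually recognised. Its mean was the highest of the 9 when the larger sum is taken. It was 209, 199 and 253 FPKM in mock-treated TLR4-WT cells (220.4 ± 29.0), 216, 184 and 195 in TLR4-K730R (199 ± 16.3), with 172, 148 and 192 in TLR4-K810R (171 ± 22.3). LPS-treated cells had 216, 211 and 238 FPKM in TLR4-WT (222 ± 14.5), 245, 267 and 205 in TLR4-K730R (239 ± 31.4), with 271, 229.9 and 240.0 in TLR4-K810R (247 ± 21.4). The TLR4-K810R mock and LPS libraries did not overlap, and the rise was 0.53 ± 0.13 with an adjusted p of 0.00393. It lost its call without TLR4-K810R mock 1, mock 2, LPS 1 or LPS 3, with adjusted p-values up to 0.0240, and also with only the groups compared (0.0172), from last-exon sums (0.208) and without replicate 1 or 2 of all groups. The difference was 0.01 (adjusted p = 0.947) in TLR4-WT and 0.26 (0.111) in TLR4-K730R, and the response of TLR4-K810R against that of TLR4-WT was not called (0.52, adjusted p = 0.249). The gene value comes from a single first exon, at 148 to 271 FPKM, while the last-exon sums were 9.32 to 109.5 FPKM. Cd5l, whose 2 sums were equal, had 33.4 to 199 FPKM, so the order of these genes depends on the sum taken. A form of Adgre1 that skips 3 exons was at 159.6 FPKM in LPS 1 of TLR4-K810R and at 31.4 in mock 3 of TLR4-WT, unlike the other libraries.

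Alox15 (ENSMUSG00000018924, chr11:70344152-70352031, minus strand) encodes the 12/15-lipoxygenase, which oxidises polyunsaturated fatty acids. It was 1.98, 1.502 and 1.37 FPKM in mock-treated TLR4-WT cells (1.62 ± 0.324), and 6 of the other 15 libraries were listed at 0. TLR4-WT after LPS had 0.495 FPKM in 1 library and 0 in the others, at -1.19 ± 0.28 with an adjusted p of 0.00266. Only 5 libraries reached 1 FPKM, 3 of them TLR4-WT mock, so the gene passed the filter through that group and had to differ from it. The call was lost without TLR4-WT mock 1, TLR4-WT LPS 2 or TLR4-WT LPS 3, with adjusted p-values of 0.0117 to 0.0139, and without both LPS 3 libraries (-1.09, adjusted p = 0.0140). A pseudocount of 0.1 also ended it (0.0179), as did leaving out replicate 2 or 3 of all groups. Mock-treated TLR4-K730R had 0.663 FPKM and 0 in the other 2 libraries, and TLR4-K810R had 0.675, 0.820 and 1.36. After LPS, TLR4-K730R had 0.388, 0 and 0.424 FPKM, and TLR4-K810R had 1.04, 0.474 and 0. The 0.474 comes wholly from a first-exon row 23856 bases upstream of the annotated start, and rows on the gene were listed at 0 in that library.

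**Figure D3:**
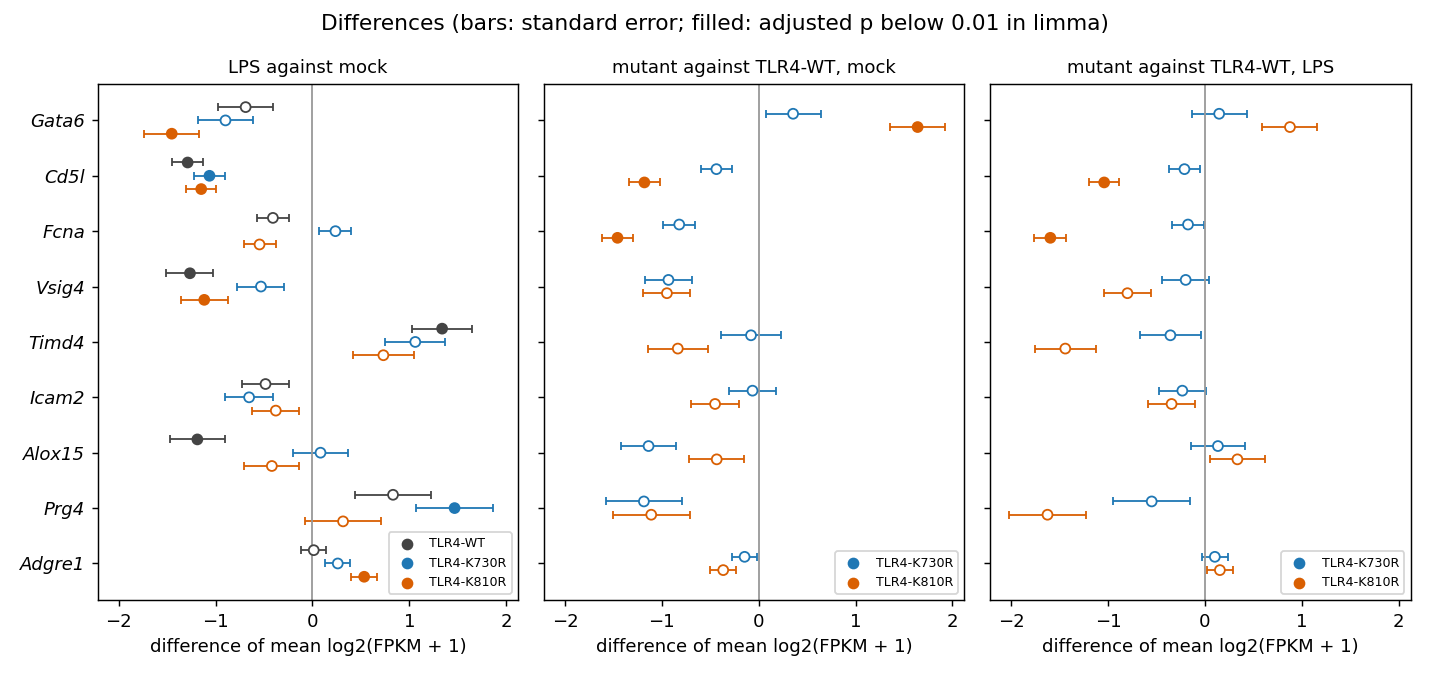
Differences of mean log2(FPKM + 1) (horizontal axes) for each gene (vertical axis), for LPS against mock in each genotype and for each mutant against TLR4-WT in mock and in LPS libraries, with standard errors as bars and filled points where the adjusted p in limma is below 0.01. In the mock panel 8 of the 9 points of TLR4-K810R lie left of 0, and the exception is Gata6 at 1.64.

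Set together, LPS against mock asked how the resident genes respond to the TLR4 ligand. In TLR4-WT, Cd5l, Vsig4 and Alox15 fell and Timd4 rose, which is 4 of the 9 genes, against 34.8% of all tested genes called. The libraries of 7 of the 9 did not overlap, against 55.4%. Alox15, which passed the filter through TLR4-WT mock and had to differ from it, is in both counts, and of the other 8 genes 3 were called and 6 did not overlap. In TLR4-K730R, Cd5l fell and Prg4 rose, 2 of 9 against 36%, and 4 did not overlap, against 59.1%. In TLR4-K810R, Gata6, Cd5l and Vsig4 fell and Adgre1 rose, 4 of 9 against 29%, and 6 did not overlap, against 52.9%. Counts of this size, above the background share in TLR4-WT and TLR4-K810R and below it in TLR4-K730R by 2 genes or fewer, do not set the 9 genes apart from the rest. Cd5l was called in all 3 genotypes, and no other of the 9 was. In TLR4-K730R its call was lost without replicate 1 of all groups (adjusted p = 0.0109). With only the groups compared, Cd5l was the 1 gene of the 9 called in TLR4-K810R. The median difference of the 9 was -0.48, 0.08 and -0.42 (without Alox15 -0.45, -0.15 and -0.46), and that of all tested genes -0.28, -0.36 and -0.26. With median-of-ratios scaling the all-gene medians became -0.01, -0.04 and -0.03, and the called genes of TLR4-WT were 1581 higher and 1432 lower, in place of 1077 higher and 2422 lower. In TLR4-K730R the split moved from 960 higher and 2664 lower to 1579 and 1345, and in TLR4-K810R from 935 and 1989 to 1271 and 1170. Relative to the median of all genes, Cd5l differed by -1.01, -0.70 and -0.89, Vsig4 by -0.98, -0.17 and -0.86, and Timd4 by 1.62, 1.42 and 0.99. Without both LPS 3 libraries the genes called were Cd5l, Vsig4 and Timd4 in TLR4-WT and Cd5l and Vsig4 in TLR4-K730R. The shares of all genes given above come from all 18 libraries and cannot be set against these calls.

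Whether the response itself depended on genotype was tested as an interaction, in which the same TLR4-WT libraries serve both mutants. For TLR4-K730R, 0 of the 9 genes were called by limma, against 0.0397% of all genes, and 3 had an unadjusted p below 0.05, against 6.93% of all genes. These were Fcna (0.65, adjusted p = 0.583), Vsig4 (0.73, 0.716) and Alox15 (1.27, 0.524), whose passage of the filter through TLR4-WT mock favours a positive value. Of the other 8 genes 2 had such a p. Without both LPS 3 libraries none of the 9 was called, and Fcna was 0.30 (adjusted p = 0.517), Vsig4 0.46 (0.624) and Alox15 1.08 (0.355). Timd4 moved from -0.28 to -0.96 (0.212) and Cd5l from 0.23 to -0.12 (0.799). For TLR4-K810R, 0 were called, against 0.159%, and Adgre1 alone had an unadjusted p below 0.05, 1 gene of 9 against 13.2% of all genes.

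Mutant against wild type without LPS asked whether the substitution goes with a different resident signature before stimulation. In TLR4-K810R, 3 of the 9 genes were called, Gata6 higher and Cd5l and Fcna lower, against 1.64% of all genes. Of the 9, 8 did not overlap with TLR4-WT, against 20.9%, with Icam2 as the exception. Leaving out Alox15, which had to differ from TLR4-WT mock, 7 of the other 8 did not overlap. The median difference was -0.84 (-0.89 without Alox15), against 0.07 for all tested genes. Without TLR4-K810R mock 3 the call of Gata6 was lost, and Cd5l and Fcna kept theirs. In TLR4-K730R, 0 of the 9 were called by limma, against 0.318%, and 5 had an unadjusted p below 0.05 (4 of the other 8 without Alox15), against 7.65%. The libraries of 5 genes, Cd5l, Fcna, Vsig4, Alox15 and Prg4, lay wholly below TLR4-WT, against 16.3% of all genes without overlap and 4 of the other 8 genes when Alox15 is left out, and the median was -0.44 (-0.29 without Alox15) against 0.03. Both comparisons use the same 3 TLR4-WT mock libraries, so the shared direction of Cd5l, Fcna, Vsig4 and Prg4 is not independent between them. Directly between the mutants, 0 were called by limma, against 0.0993%, 5 had an unadjusted p below 0.05, against 10.5%, and 5 did not overlap, against 18.6%. Gata6 was higher in TLR4-K810R by 1.29 (adjusted p = 0.0638), and Cd5l and Fcna differed by -0.74 (0.0507) and -0.64 (0.111).

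With LPS, TLR4-K810R was lower than TLR4-WT in Cd5l and Fcna, 2 of the 9 genes, against 0.129% of all genes. The libraries of 6 did not overlap, against 25.3%, and the median difference was -0.80, against 0.10. Gata6 again lay on the other side, at 0.88 (adjusted p = 0.10), with all 3 TLR4-K810R libraries above all TLR4-WT ones. Without both LPS 3 libraries, 4 of the 9 were called (Cd5l, Fcna, Timd4 and Prg4, each lower), among 593 called genes in place of 13. Against TLR4-K730R, Fcna was called, 1 of 9 against 0.0993%, and 5 did not overlap, against 25.8%. Between TLR4-K730R and TLR4-WT after LPS, 0 of the 9 and 0% of all genes were called by limma, none of the 9 had an unadjusted p below 0.05, and none separated, against 10.9%. Over all genes 772 (7.67%) had an unadjusted p below 0.05 there. Without the LPS 3 libraries, 157 genes were called in that comparison, and none of the 9 was among them. The adjusted p-values were then 0.0150 for Cd5l (-0.56), 0.0385 for Fcna (-0.52) and 0.0280 for Timd4 (-1.03), with 0.241 for Prg4 (-1.04, in place of -0.55) and 0.343 for Vsig4 (-0.48, in place of -0.20).

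**Figure D4:**
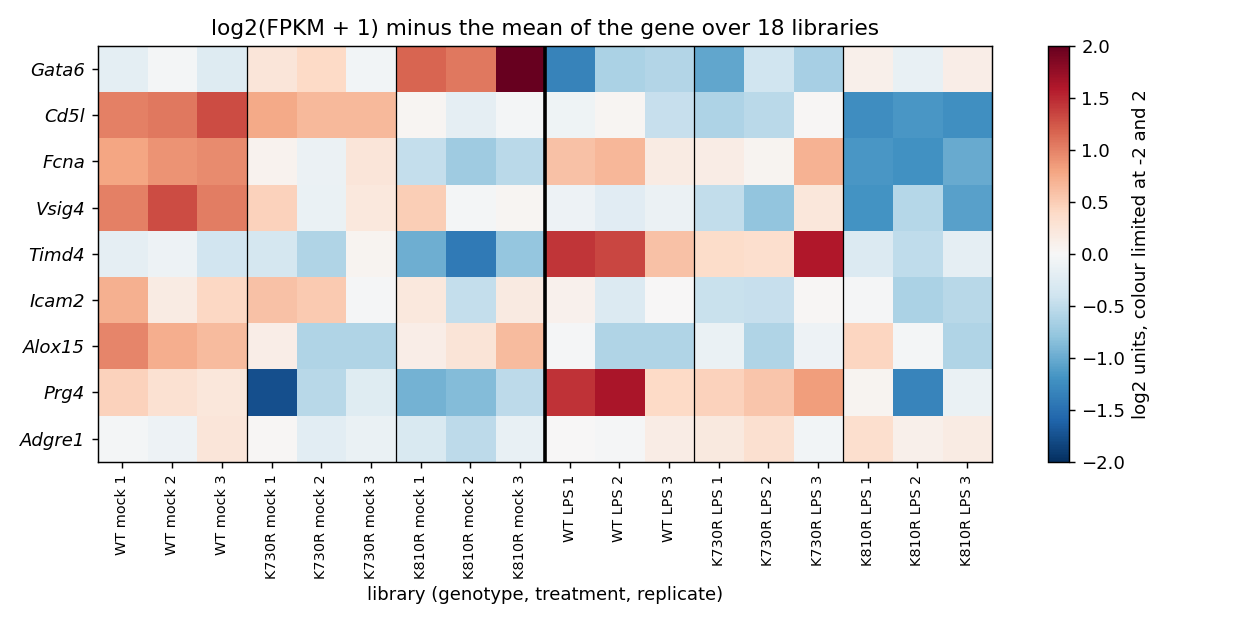
log2(FPKM + 1) of each gene (rows) minus its mean over the 18 libraries, by library (columns, mock left and LPS right of the thick line), with colour limited at -2 and 2. Gata6 ranges from -1.34 to 2.23 and is highest in TLR4-K810R mock libraries, where Fcna and Cd5l are below their TLR4-WT mock values, and Adgre1 has the smallest range, from -0.53 to 0.34.

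The 9 genes did not share 1 profile. By the mean absolute difference of centred log2(FPKM + 1) over the 18 libraries, the closest pair was Cd5l and Vsig4, at 0.262. Among all tested genes, Cd5l lay nearest to C1qa (0.225), a chain of the complement component that opens the classical pathway, and then to Vsig4 and Prr5l (0.264). Nearest to Fcna was C4b (0.201), a complement component cut in the same lectin pathway, and then Mir5107 (0.257), whose rows lie on Cd74, and Cd72 (0.336). Vsig4 lay nearest to Prr5l (0.253), Cd5l and C1qa (0.265), and Timd4 to Furin (0.269), Il21r (0.299) and Tor1aip2 (0.307). For Gata6 the nearest genes were Cavin2 (0.190), Myl9 (0.234), a smooth muscle myosin light chain, and Grb10 (0.273). Prg4 lay nearest to Timd4, but at 0.385, and then to Ms4a6b (0.393) and B2m (0.395). The nearest genes were Snf8, Crlf2 and Zfand2b for Adgre1 (0.0999 to 0.107), Pacs1, Ep300 and Ppp1cc for Icam2 (0.181 to 0.203), with Strbp, Tfb2m and Uggt1 for Alox15 (0.247 to 0.251). These libraries share their groups, so the distances are descriptions.

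Of 18 further genes of resident peritoneal macrophages, 16 had a value and 8 were tested. After LPS, 3 rose and 2 fell in each genotype, while 34.8%, 36% and 29% of all genes were called. Those that rose were the matrix protein gene Thbs1 (2.99, 3.25 and 2.60 in TLR4-WT, TLR4-K730R and TLR4-K810R), the coagulation factor gene F10 (2.36, 2.79 and 2.93) and the protease inhibitor gene Slpi (3.10, 3.36 and 4.37). The integrin gene Itga6 (-2.12, -2.20 and -2.37) and the tetraspanin gene Cd9 (-0.89, -1.70 and -1.65) fell. In mock-treated cells C4b was 11.2, 10.3 and 12.5 FPKM in TLR4-WT, 6.54, 7.14 and 6.47 in TLR4-K730R, with 5.11, 4.52 and 3.99 in TLR4-K810R. These groups did not overlap, in the order of Cd5l and Fcna, and C4b was the 1 gene of the list called in a comparison of genotypes (TLR4-K810R against TLR4-WT, -1.16 ± 0.19, adjusted p = 0.00290).

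Of 12 regulators of the resident program, 10 had a value and 9 were tested, and 6, 6 and 5 fell after LPS in the 3 genotypes, against 34.8%, 36% and 29% of all genes called in either direction. Bhlhe40 (-1.63, -1.55 and -1.35), a factor for proliferation of these macrophages, and the nuclear receptor gene Rxra (-1.25, -1.20 and -0.91) fell in all 3, as did Klf2 and Rxrb. Between genotypes only Wt1 was called, higher in mock-treated TLR4-K810R. Of 22 genes of small or monocyte-derived peritoneal macrophages, 20 had a value and 16 were tested. After LPS, 4, 2 and 2 of these rose and 5, 6 and 6 fell in the 3 genotypes, against 34.8%, 36% and 29% of all genes called. In mock-treated TLR4-K810R against TLR4-WT, 3 were lower, Retnla (-3.23, adjusted p = 3.60e-05), Ly6c2 (-1.75, 2.72e-05) and Itgax (-0.59, 0.00290), and Plac8 was higher (1.79, 0.00290), while 1.64% of all genes were called. Mock-treated TLR4-K810R was lower than TLR4-K730R in 2 of the 16, against 0.0993% of all genes. After LPS it was lower in 1 gene than TLR4-WT, against 0.129%, and in 1 than TLR4-K730R, against 0.0993%. The response of TLR4-K810R against that of TLR4-WT was called for 1 gene, with a negative value, against 0.159%. Of 13 tested general macrophage genes, 10, 10 and 7 fell and 2 rose in each genotype after LPS, against 34.8%, 36% and 29% of all genes called. Their median differences were -0.78, -0.75 and -0.57, against -0.28, -0.36 and -0.26 for all tested genes. None was called in any comparison of genotypes.

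Markers of other cells moved with some groups. From rows that lie on the named gene, the 10 intestinal epithelial genes summed to 0.118 to 0.594 FPKM in TLR4-WT mock libraries, 9.61 to 46.1 in TLR4-K730R and 14.8 to 63.9 in TLR4-K810R. After LPS they summed to 0, 12.1 and 13.0 FPKM in TLR4-WT, 12.6 to 18.2 in TLR4-K730R, with 6.98, 0.247 and 0.127 in TLR4-K810R. From all rows with the gene number, which the tests used, the mock sums were 97.2 to 104, 90.7 to 104 and 103 to 119 FPKM. After LPS these sums were 45.3 to 64.0, 51.2 to 66.4 and 53.1 to 63.0 FPKM. Of the 6 tested, 1, 1 and 5 fell after LPS in the 3 genotypes, against 34.8%, 36% and 29% of all genes called in either direction. The 6 mast cell genes with a value summed to 5.02 to 6.24 FPKM in TLR4-WT mock, above the 0.517 to 2.68 of TLR4-K730R mock and the 1.62 to 3.51 of TLR4-K810R mock, and to 1.78 to 5.30 after LPS. Neutrophil markers summed to 47.2 to 61.5 FPKM in mock and 228 to 338 after LPS, mostly from S100a8 and Mmp9. Camp, a granule peptide gene listed at 0 in 7 libraries, rose in all 3 genotypes (2.09, 2.53 and 2.41), and S100a9, at most 2.23 FPKM, was higher in TLR4-K810R than in TLR4-WT after LPS (1.42, adjusted p = 0.00878). Retnlg, of the same list, fell after LPS in TLR4-WT (-1.58, adjusted p = 7.59e-05) and without LPS lay below TLR4-WT in TLR4-K730R (-1.46, 0.00877). The neutrophil genes Ly6g, Cxcr2 and Ngp were listed at 0 in 13, 17 and 16 libraries. The 7 T cell genes with a value summed to 45.4 to 93.9 FPKM in mock and 20.5 to 66.6 after LPS, mostly from Il7r (20.5 to 93.7). Cd3e, Cd3d and Cd3g were listed at 0 in 17, 15 and 16 libraries. The 1 T cell gene tested fell after LPS in TLR4-K730R and TLR4-K810R, against 36% and 29% of all genes called. The 6 B cell genes with a value summed to at most 4.02 FPKM. Their part in the values of the 9 genes was not tested.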

How the data were processed

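RNA-seq was measured in 18 libraries, 3 in each of 6 groups by genotype and treatment, and groups and replicate numbers follow the labels. FPKM values were deposited by the authors, 1 per transcript event (first exons, last exons, skipped exons and others), in 80071 to 90401 rows per library, with 20 event kinds and no row for an event without expression. RNA was isolated with a column kit and sequenced on an Illumina instrument by a service provider. The aligner and counter are not given in the sources used here. The submitters' processing notes name the build hg18, while gene numbers and coordinates match mouse GRCm38 (GENCODE M21).

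Gene values were computed from rows that carry the gene number. Of the first-exon and last-exon FPKM, 5.99% lay off the named gene. limma 3.58.1 in R 4.3.3 was fitted to log2(FPKM + 1) with an intensity trend, and 11 comparisons were made at the adjusted p of 0.01 that the methods state. The script was tested on simulated data. Gene values used Python 3.11.15 and pandas 2.3.3. The members, the gene lists and the tests were chosen with earlier results of these data known. Alternatives covered the threshold, the rows used, the pseudocount, the scaling, filters, left-out libraries, a replicate block, weights, the variance trend and fitting only the groups compared. Leaving out a replicate number of all groups, leaving out both LPS 3 libraries and summing marker rows that lie on the named gene were added after seeing the data. Text names the 9 genes, list genes that were called or highest, and the 3 tested genes nearest to each of the 9. List genes without a value under their own gene number, such as Cebpb and Itgam, were not analysed here.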

Additional observations from a re-analysis of the deposited data

Results flagged for a closer look

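A form of Adgre1 that skips 3 exons (chr17:57401905-57402861) was outside the comparisons above. It was listed at 159.6 FPKM in TLR4-K810R LPS 1, beside 111 FPKM of the form that keeps them, so that 41.1% was included. In TLR4-WT mock 3 the skipping form was at 31.4 FPKM, and in the other 16 libraries it was between 0.00230 and 0.00336 FPKM. The level of the skipping form in 1 library, above that of the control libraries, flagged it. The other 2 libraries of its group did not show it, and the reason was not tested.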

How the results depend on the processing

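Over the 9 genes and 11 comparisons, 31 of 99 differences changed sign under at least 1 alternative, 2 of them called. Both called ones were Fcna in TLR4-K810R from first-exon sums, whose rows lie off the annotated gene, 862 and 883 bases upstream of its start, and were listed for only part of the libraries. There Fcna was 0.93 for LPS against mock, 1.21 against TLR4-WT after LPS and 1.1 against TLR4-K730R after LPS. Of the 11 counts of called genes among the 9, the following left 1.5 times the reported count. LPS in TLR4-WT (4) gave 2 with a pseudocount of 0.1. LPS in TLR4-K730R (2) gave 1 without a filter, with the replicate block, with only the groups compared or with first-exon sums, 4 with median-of-ratios scaling and 5 at a threshold of 0.05. LPS in TLR4-K810R (4) gave 1 with only the groups compared. Mock TLR4-K730R against TLR4-WT (0) gave 1 with library weights or at 0.05. Mock TLR4-K810R against TLR4-WT (3) gave 1 with only the groups compared or first-exon sums. TLR4-K810R against TLR4-WT after LPS (2) gave 1 without a filter, with the replicate block or with first-exon sums, 0 with only the groups compared, and 4 with library weights or at 0.05. Against TLR4-K730R after LPS (1), the count was 0 with only the groups compared or first-exon sums and 2 at 0.05.

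Leaving out 1 library gave 2 to 4 for LPS in TLR4-WT (2 without TLR4-WT LPS 2), 1 to 3 in TLR4-K730R (1 without TLR4-K730R mock 1) and 2 to 4 in TLR4-K810R (2 without TLR4-K810R mock 1). The count was 2 to 3 for mock TLR4-K810R, 1 to 4 for TLR4-K810R against TLR4-WT after LPS (4 without TLR4-WT LPS 3, 1 without any other) and 0 to 1 against TLR4-K730R (0 without TLR4-K810R LPS 2). Leaving out replicate 1 or 2 of all groups gave 2 and 2 for LPS in TLR4-WT, 0 and 1 in TLR4-K730R, and 0 and 0 for each TLR4-K810R comparison with another genotype that had calls, and replicate 1 gave 2 for LPS in TLR4-K810R. Leaving out both LPS 3 libraries gave 4 for TLR4-K810R against TLR4-WT after LPS. The labels do not say whether replicate numbers pair the libraries. Over 45 pairs of libraries with the same number, the correlation of deviations from group means was -0.347 to 0.101, with a median of -0.0233. Pairs with different numbers were not computed, so these values do not settle whether the numbers pair libraries. Depth is unknown, and a value listed at 0 does not show that a gene is silent.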

Other observations

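An exon of Prg4 (chr1:150462097-150462219) was the only exon of Prg4 that was listed both as kept and as skipped in all 18 libraries, and it was chosen after its values were seen. The share that kept it was 71.2%, 73.8% and 43.3% in mock-treated TLR4-K810R and 20.5%, 25.7% and 21.5% after LPS, which do not overlap. In TLR4-WT it was 52.2%, 17.7% and 31.4% before and 35.6%, 37.1% and 18.6% after LPS. In TLR4-K730R it was 64.6%, 8.98% and 37.8% before and 24.9%, 57.8% and 19.8% after, so that both of these genotypes overlap. A two-sided exact permutation test of 3 against 3 libraries cannot go below 0.1, and the counts of reads behind these shares are unknown.

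Retnla, a gene of alternatively activated macrophages, was 25.3, 29.5 and 13.4 FPKM in the TLR4-WT LPS libraries and 10.6, 13.6 and 30.2 in those of TLR4-K730R. C4b was 8.67, 8.85 and 5.88 FPKM in TLR4-WT and 6.08, 5.71 and 11.1 in TLR4-K730R. As for Fcna, the library labelled LPS 3 was the low one in TLR4-WT and the high one in TLR4-K730R.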
